A study of Homo sapiens with 18 samples.

Results

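GDF15 (growth differentiation factor 15, ENSG00000130513) was followed across a pair of oestrogen receptor-positive breast cancer cell lines given a CDK4/6 inhibitor, as 1 of the 60656 gene rows measured. It was selected on its measured counts, which were higher in CAMA-1 cells and lower in ZR-75-1 cells with both inhibitors than with the solvent DMSO. Its levels against DMSO are therefore given as a description, with no test.

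GDF15 is a secreted member of the TGF-β superfamily and a marker of cellular stress. It is made as a precursor that furin-type proprotein convertases cleave, and the circulating hormone acts in the hindbrain through GFRAL and its co-receptor RET to lower food intake. Its transcription is known to respond to the integrated stress response through ATF4 and DDIT3, to DNA damage, and to immediate early and Krüppel-like factors such as EGR1, ATF3 and KLF4. Most cells express little of it at rest, and many tumours release it.

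CAMA-1 and ZR-75-1 are luminal breast cancer lines, both entered as wild-type in the labels. Each line received abemaciclib or palbociclib, which block the kinases CDK4 and CDK6, at 500 nM for 5 days, or an equal volume of DMSO. RNA was read from transcript 3′ ends in 3 libraries per group, giving 6 groups and 18 libraries. Each line stands for 1 established cell population, so a difference between the lines is a difference between 2 populations.

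Library totals ran from 2308442 to 4146549 counts. The floor, taken here as 3 counts, was thus between 0.723 and 1.30 per 1000000 counts before TMM scaling. CPM are counts per 1000000 counts of the library, after scaling by TMM factors. All 8 luminal markers had counts in every group. Of 6 fibroblast markers, COL1A2, DCN and PDGFRB stood at 0 in every library, and of 6 macrophage markers CD163 and MSR1 did. COL1A1 had counts in every library, with group means from 11.5 to 28.6 CPM. COL3A1 had means of 1.23, 6.23 and 5.70 CPM in CAMA-1 with DMSO, abemaciclib and palbociclib, and 0 in ZR-75-1. The summed fibroblast list ranged from 14.4 to 33.9 CPM over the libraries and the summed macrophage list from 0.241 to 11.2 CPM. The mitochondrially encoded share of counts was 15.7% ± 0.87 (SD, n = 3) in CAMA-1 with DMSO, 24.8% ± 1.37 with abemaciclib and 23.6% ± 1.15 with palbociclib. In ZR-75-1 it was 20.2% ± 2.68, 19.5% ± 1.01 and 18.98% ± 0.70 in the same order.

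GDF15 lies on chromosome 19 on the forward strand. In GENCODE release 44 (GRCh38) the gene spans chr19:18374731-18389176 with 5 transcripts. The canonical transcript has 2 exons, at chr19:18386158-18386466 and chr19:18388286-18389176, with 32 bases of 5′ UTR and 244 bases of 3′ UTR. The miRNA gene MIR3189 lies inside it and had 0 counts, and no other annotated gene overlapped GDF15.

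The RefSeq promoter of GDF15 (GRCh38.p14, 250 bases before to 50 bases after the start site, forward strand) was searched on both strands for letters known from the motifs of its candidate regulators. The 3 matches are shown because they are the whole yield of that search, with the motif in capitals.
GC box at chr19:18386031-18386052, matched on the reverse strand: cccagaccCCGCCCagctgtgg
GC box at chr19:18386080-18386101, matched on the forward strand: ggggaggaGGGCGGgactgagc
TATA box at chr19:18386121-18386142, matched on the forward strand: ccggggacTATAAAggccggtc
The GC box letters GGGCGG, the core that SP1 and Krüppel-like factors share, are held by 45.0% of the 35116 RefSeq promoters of this length. The TATA box letters TATAAA are held by 11.5%. The window held no TGATGNAA (the composite site of ATF4, in 3.62% of promoters), TGANTCA (AP-1, 7.71%), TGACGTCA (cyclic AMP response element, 1.85%), CACGTG (TFE family E box, 7.26%) or GCGNGGGCG (EGR1, 9.43%), nor a full palindromic oestrogen response element, which 0.0570% of promoters hold. The GC box can share bases with the EGR1 site. These are matches of letters, not measured binding.

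In CAMA-1, GDF15 was low with DMSO and higher in every library with either inhibitor. The 3 DMSO libraries held 14, 19 and 39 GDF15 counts, or 4.47, 6.36 and 8.96 CPM. With abemaciclib the libraries held 232, 137 and 157 counts, or 61.4, 58.8 and 49.0 CPM. With palbociclib they held 717, 620 and 496 counts, or 172.6, 176.4 and 168.7 CPM. No library of one CAMA-1 group overlapped with another, and the palbociclib libraries were the highest of the whole series.

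The group means were 6.60 ± 2.25 CPM with DMSO, 56.4 ± 6.52 with abemaciclib and 172.6 ± 3.85 with palbociclib (SD, n = 3). Abemaciclib thus stood 8.55-fold and palbociclib 26.1-fold above DMSO. The fitted log2 fold changes were 3.01 (SE 0.17) and 4.62 (SE 0.15), which placed GDF15 at rank 47 and rank 7 among the largest positive values of the 11053 genes fitted in this line. The DMSO library with 39 counts set part of this distance, and the palbociclib value was 4.95 without it.

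In ZR-75-1 the order was turned around. The DMSO libraries held 409, 415 and 302 GDF15 counts, or 133.9, 127.3 and 104.3 CPM. The abemaciclib libraries held 38, 33 and 44 counts, or 12.6, 11.5 and 17.4 CPM, and the palbociclib libraries held 139, 107 and 150 counts, or 39.0, 36.3 and 44.2 CPM. Here the DMSO libraries were the highest and the abemaciclib libraries the lowest, again with no overlap between groups.

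Means in ZR-75-1 were 121.9 ± 15.5 CPM with DMSO, 13.8 ± 3.13 with abemaciclib and 39.8 ± 4.01 with palbociclib (SD, n = 3). DMSO stood 8.82-fold above abemaciclib and 3.06-fold above palbociclib. The fitted log2 fold changes were −3.16 (SE 0.15) and −1.62 (SE 0.12), at rank 82 and rank 90 among the largest negative values of 11017 genes. In each line both inhibitors are set against the same 3 DMSO libraries, so the pair of folds in a line is not independent.

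**Figure D1:**
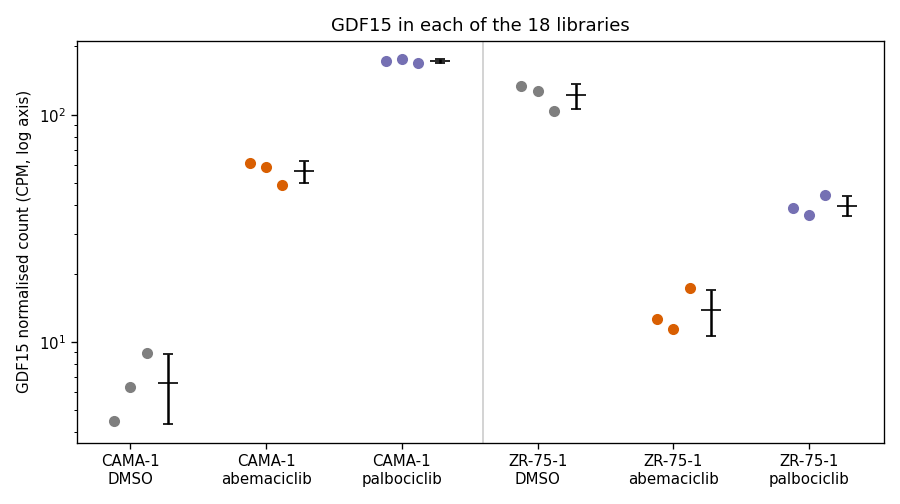
GDF15 in CPM on a log axis for each of the 18 libraries (points) by cell line and treatment, with the group mean and SD (black, n = 3). The CAMA-1 groups climb from 6.60 to 56.4 and 172.6 CPM, while the ZR-75-1 groups stand at 121.9, 13.8 and 39.8 CPM in the same order.

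Over the 6 groups the levels rose from CAMA-1 with DMSO through ZR-75-1 with abemaciclib, ZR-75-1 with palbociclib, CAMA-1 with abemaciclib and ZR-75-1 with DMSO to CAMA-1 with palbociclib. The steps between neighbouring means were 2.09-, 2.88-, 1.42-, 2.16- and 1.42-fold, and the libraries of no neighbouring pair overlapped. The coefficient of variation was largest in CAMA-1 with DMSO (34.2%) and in ZR-75-1 with abemaciclib (22.7%), the groups with the fewest GDF15 counts. It was 2.23% in CAMA-1 with palbociclib.

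The starting levels of the lines also differed. With DMSO the ZR-75-1 mean was 18.5-fold that of CAMA-1, while with abemaciclib the CAMA-1 mean was 4.08-fold and with palbociclib 4.33-fold that of ZR-75-1. With mitochondrially encoded counts left out of the library total and no TMM scaling, the CAMA-1 CPM means were 8.55, 73.6 and 224.5 and the ZR-75-1 means 148.9, 16.7 and 47.8, in the order DMSO, abemaciclib and palbociclib. In bulk RNA, fewer cells that express a gene and less RNA of it per cell cannot be told apart.

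The inhibitors were compared with each other at the same dose and time, a contrast that the choice of GDF15 did not name. The choice did use these same libraries, with earlier results known, so the p-values of GDF15 below are not independent of it. In both lines, abemaciclib left GDF15 below its palbociclib level. The log2 difference was −1.61 (SE 0.11, 95% interval −1.88 to −1.35) in CAMA-1, with an adjusted p of 3.79e-14 by edgeR's quasi-likelihood test. In ZR-75-1 it was −1.55 (SE 0.17, 95% interval −1.96 to −1.13), with an adjusted p of 2.16e-10 by the same test. In each line all 3 abemaciclib libraries lay below all 3 palbociclib libraries, by 3.06-fold in CAMA-1 and 2.88-fold in ZR-75-1 on the means.

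Of all genes fitted, 2.33% passed this contrast in CAMA-1, and in ZR-75-1 13.2% did. The GDF15 contrast of ZR-75-1 less that of CAMA-1 was 0.07 (SE 0.22, 95% interval −0.41 to 0.55, adjusted p = 0.955 by edgeR), a comparison added after the values were seen. The interval still allows a difference of either sign. The levels with palbociclib were thus above those with abemaciclib in the line where both lay above DMSO and in the line where both lay below it.

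Of the 19 candidate regulators listed, all were fitted in CAMA-1 and 18 in ZR-75-1, where TFEB, a lysosomal regulator, had too few counts. In CAMA-1, 7 rose and 2 fell with abemaciclib, against 20.3% and 20.1% of all genes, and 9 rose and 2 fell with palbociclib, against 18.4% and 18.7%. In ZR-75-1, 3 rose and 8 fell with abemaciclib, against 17.9% and 18.3% of all genes, and 2 rose and 11 fell with palbociclib, against 14.5% and 13.4%. The median log2 fold change of the list was 0.12 and 0.24 in CAMA-1. In ZR-75-1 it was −0.29 and −0.65, whereas that of all genes fitted lay between −0.01 and 0.01.

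By DESeq2 only 1 regulator rose with abemaciclib in ZR-75-1. The count of 2 with palbociclib in ZR-75-1 was 1 without DMSO replicate 1 or without palbociclib replicate 2.

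In all, 3 of the 19 regulators listed were called in the direction of GDF15 in all 4 comparisons. That pattern was called for 77 of the 10123 other genes fitted in both lines (0.761%), these 3 among them. The list was drawn up with earlier results of these data known. ATF3, a stress-induced member of the ATF family, had 1.60, 3.01 and 2.07 CPM in the CAMA-1 DMSO libraries, 5.56, 4.72 and 3.75 with abemaciclib, and 7.94, 12.5 and 9.52 with palbociclib. Its ZR-75-1 libraries had 24.6, 25.8 and 27.98 CPM with DMSO, 7.63, 6.60 and 9.47 with abemaciclib, and 7.29, 10.2 and 9.72 with palbociclib. The inhibitor libraries lay wholly above DMSO in CAMA-1 and wholly below it in ZR-75-1.

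ATF3 rose by 1.05 (SE 0.43) and 2.13 (SE 0.38) on the log2 scale in CAMA-1 with abemaciclib and palbociclib in turn. In ZR-75-1 it fell by 1.73 (SE 0.24) and 1.53 (SE 0.23). The rise with abemaciclib in CAMA-1 was near the threshold (adjusted p = 0.0487 by edgeR, 0.0760 by DESeq2) and was lost under 6 of its 12 alternatives, among them leaving out DMSO replicate 1 or 3 or abemaciclib replicate 1 or 2. The other 3 calls of ATF3 held under every alternative run for them.

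KLF6, a Krüppel-like factor widely expressed in epithelia, had 79.5, 88.1 and 103.6 CPM with DMSO in CAMA-1, 162.0, 176.8 and 164.0 with abemaciclib, and 190.8, 185.5 and 170.7 with palbociclib. Its ZR-75-1 libraries had 143.1, 185.3 and 138.2 CPM with DMSO, 81.6, 91.7 and 98.3 with abemaciclib, and 79.4, 89.5 and 102.2 with palbociclib. Its inhibitor libraries separated from DMSO in both lines, upward in CAMA-1 and downward in ZR-75-1, while the inhibitor groups overlapped with each other.

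KLF6 rose by 0.85 and 0.97 in CAMA-1 and fell by 0.79 with each inhibitor in ZR-75-1, on the log2 scale (SE 0.09 to 0.11). KLF4, a related factor linked to growth arrest, had means of 3.49 ± 0.54, 7.98 ± 1.77 and 8.87 ± 0.73 CPM in the CAMA-1 DMSO, abemaciclib and palbociclib groups (SD, n = 3). In ZR-75-1 its means were 15.4 ± 1.69, 7.54 ± 2.39 and 8.19 ± 1.78 CPM. The fitted values were 1.14, 1.30, −1.04 and −0.92 (adjusted p from 0.00198 to 0.00797 by edgeR), and the KLF4 libraries with either inhibitor did not overlap with DMSO in either line.

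Unlike GDF15, neither ATF3, KLF4 nor KLF6 passed the test between abemaciclib and palbociclib in either line. The difference was largest for ATF3 in CAMA-1, at −1.08 (SE 0.35, adjusted p = 0.0977 by edgeR). In ZR-75-1 it was −0.20 for ATF3 (SE 0.28), −0.12 for KLF4 (SE 0.31) and −0.00 for KLF6 (SE 0.11).

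**Figure D2:**
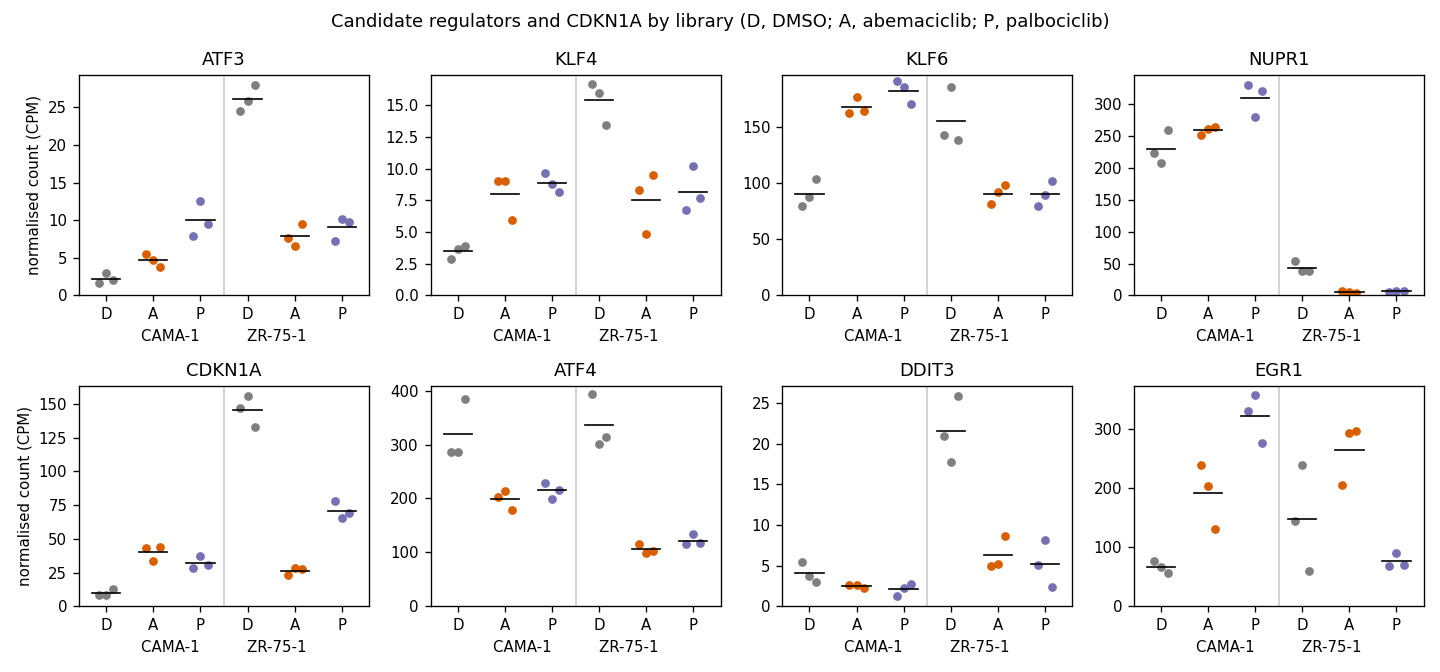
Levels in CPM (linear axes from 0) of 7 candidate regulators and CDKN1A in each library, by line and treatment, with group means as bars. ATF3, KLF4, KLF6 and CDKN1A lie higher with either inhibitor in CAMA-1 and lower in ZR-75-1, ATF4 lies lower in both lines, and the ZR-75-1 DMSO libraries of EGR1 spread from 59.4 to 238.4 CPM.

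The ATF4 transcript fell in both lines. ATF4, the transcription factor whose translation rises when eIF2α is phosphorylated, had 286.5, 285.3 and 384.7 CPM in the CAMA-1 DMSO libraries, then 202.8, 214.6 and 178.4 with abemaciclib, and then 228.6, 199.5 and 216.3 with palbociclib. Its ZR-75-1 libraries had 394.6, 300.3 and 314.4 CPM, then 116.1, 98.7 and 101.8, and then 115.0, 133.9 and 116.9. ATF4 lay below DMSO in every inhibitor library of both lines.

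ATF4 fell by 0.72 and 0.61 on the log2 scale in CAMA-1, while GDF15 stood higher, and by 1.68 and 1.47 in ZR-75-1 (SE 0.09, largest adjusted p 3.71e-07 by edgeR). DDIT3 (CHOP), which ATF4 induces, fell in ZR-75-1 by 1.79 and 2.08. Its means there were 21.6 ± 4.09 CPM with DMSO and 6.29 ± 2.07 and 5.18 ± 2.89 with the inhibitors (SD, n = 3). In CAMA-1 its means were 4.03, 2.47 and 2.07 CPM and its values of −0.71 and −1.004 missed the threshold. CEBPB, another stress-responsive bZIP factor, fell in both lines, by 0.95 and 0.54 in CAMA-1 and by 0.84 and 0.80 in ZR-75-1.

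NUPR1, a stress-induced chromatin protein, fell by 2.99 and 2.72 on the log2 scale in ZR-75-1, from 43.5 ± 9.72 CPM to 5.38 ± 1.35 and 6.63 ± 1.61 (SD, n = 3). In CAMA-1 its means were 229.8, 258.9 and 309.3 CPM, and only palbociclib passed the test, at 0.39.

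EGR1 and JUN, both immediate early factors, separated the inhibitors in ZR-75-1. EGR1 had 143.8, 238.4 and 59.4 CPM with DMSO in that line, 204.4, 292.5 and 296.0 with abemaciclib, and 68.2, 89.5 and 70.1 with palbociclib. Both inhibitor groups overlapped with the widely spread DMSO libraries, but not with each other.

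The edgeR values of EGR1 in ZR-75-1 were 0.82 (SE 0.17) with abemaciclib and −0.98 (SE 0.19) with palbociclib, both called by edgeR but not by DESeq2 (adjusted p = 0.179 and 0.140, SE 0.48 for each). In CAMA-1, EGR1 rose from 66.3 ± 10.8 CPM to 191.1 ± 54.9 and 321.1 ± 41.5 (SD, n = 3), by 1.51 and 2.26 on the log2 scale. JUN rose by 1.14 and 1.30 in CAMA-1 and fell by 1.05 with palbociclib in ZR-75-1. Its value of 0.47 with abemaciclib there was called by edgeR and not by DESeq2 (adjusted p = 0.182), and was lost without DMSO replicate 3 or abemaciclib replicate 3.

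Abemaciclib exceeded palbociclib in ZR-75-1 by 1.80 (SE 0.18) for EGR1 and 1.52 (SE 0.14) for JUN on the log2 scale, with adjusted p of 2.47e-11 and 1.26e-12 by edgeR. GDF15 had the opposite sign in that contrast. The alternatives were run for the contrast between the inhibitors with GDF15 only. Against DMSO with abemaciclib in ZR-75-1, the DESeq2 SE was 0.48 for EGR1 and 0.28 for JUN. In CAMA-1, EGR1 was lower with abemaciclib than with palbociclib, at −0.75 (SE 0.12, adjusted p = 3.08e-05 by edgeR), the sign that GDF15 had.

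The remaining calls among the regulators were smaller. NFKB1 rose by 0.61 and 0.62 and XBP1, a factor of the unfolded protein response, by 0.41 and 0.69 in CAMA-1, and neither passed in ZR-75-1. HIF1A, the hypoxia factor, rose by 0.52 and 0.74 in ZR-75-1 and SP1, a general GC box factor, fell by 0.53 and 0.36 there. RELA passed only with palbociclib in CAMA-1 (0.24), and MYC (−0.51) and ESRRA (0.57) only with palbociclib in ZR-75-1. Several of these were lost under an alternative, among them SP1 and MYC with palbociclib by DESeq2 (adjusted p = 0.0574 and 0.0958). RELA was lost without DMSO replicate 1 or palbociclib replicate 1 in CAMA-1, and ESRRA without DMSO replicate 1 or palbociclib replicate 2 in ZR-75-1. NFE2L2, TFE3 and TFEB passed no test against DMSO.

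**Figure D3:**
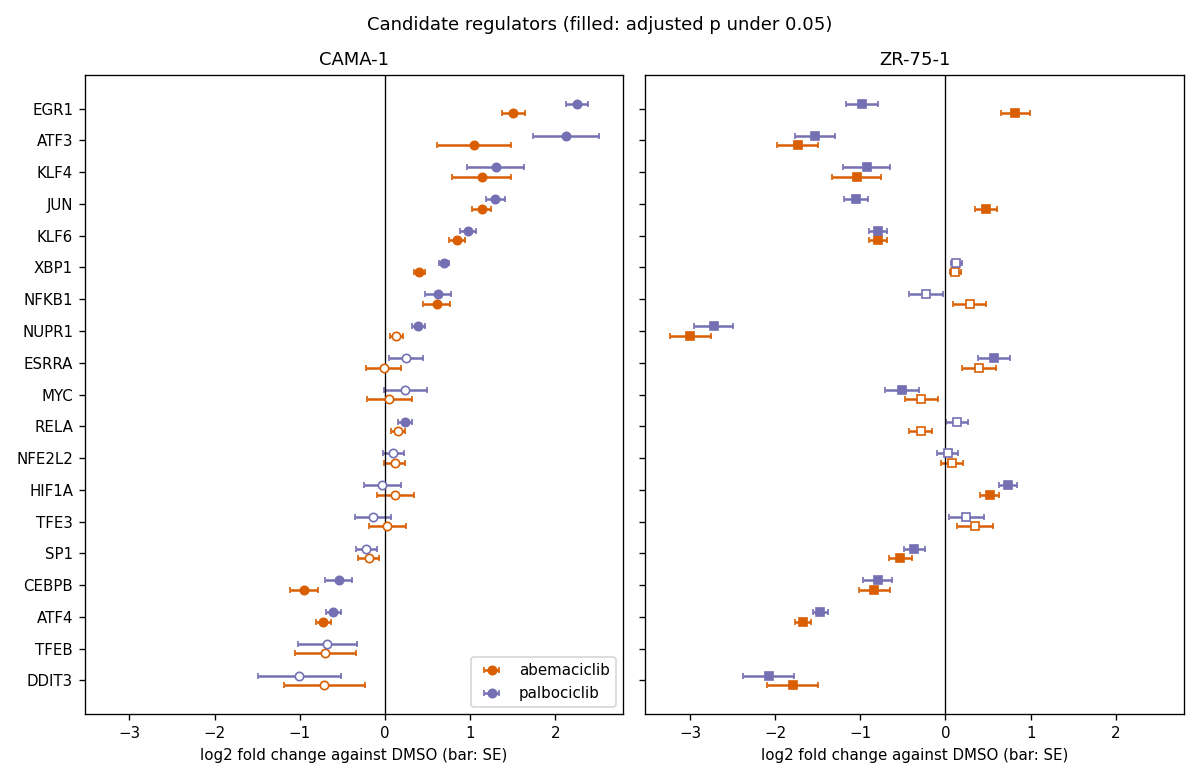
Log2 fold change against DMSO with its SE for the 19 candidate regulators in CAMA-1 (left) and ZR-75-1 (right), filled where the adjusted p is under 0.05. ATF3, KLF4 and KLF6 lie to the right of 0 in CAMA-1 and to the left in ZR-75-1 with both inhibitors, whereas ATF4 and CEBPB lie to the left in both lines.

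The difference between the lines in the response of each regulator was tested in a fit over all 18 libraries. It was called for 8 of 19 regulators with abemaciclib, against 18.2% of 11987 genes, and for 10 of 19 with palbociclib, against 20.3%. With abemaciclib all 8 were lower in ZR-75-1 relative to CAMA-1. With palbociclib 9 were lower and HIF1A was higher, at 0.74 (SE 0.22).

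In ZR-75-1 minus CAMA-1, the log2 difference with abemaciclib and palbociclib was −3.15 and −3.14 for NUPR1, −2.81 and −3.69 for ATF3, −2.20 and −2.25 for KLF4, and −1.66 and −1.79 for KLF6. ATF4 differed by −0.98 and −0.89, although it fell in both lines. The count of 8 with abemaciclib was 5 without CAMA-1 DMSO replicate 2, CAMA-1 abemaciclib replicate 2 or ZR-75-1 abemaciclib replicate 1.

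Within the groups, the relation of GDF15 to each regulator was taken from the deviation of each of the 18 libraries from its group mean, in log2 CPM. All p-values here are two-sided from an exact permutation within groups over 46656 arrangements, adjusted over the 19 regulators. Pearson's r ran from −0.39 to 0.63, 12 values were positive and 7 negative, and 4 had a raw p under 0.05. The relation was not computed for genes outside the list, so no share over all genes stands beside these counts. None passed after adjustment, the smallest adjusted p being 0.158. In CAMA-1 with DMSO, deviations rest on 14 to 39 GDF15 counts.

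KLF6 had r = 0.63 and Spearman's rho = 0.62 (exact permutation p = 0.0332 and 0.0386, adjusted 0.158 and 0.210). Without the 2 libraries farthest out in KLF6, r was 0.57. In ZR-75-1 alone r was 0.49, and in CAMA-1 alone 0.85 (exact permutation p = 0.134 over 216 arrangements, adjusted 0.545). The CAMA-1 value leaned on 2 DMSO libraries, with 14 and 39 GDF15 counts. Their deviations were −0.46 and 0.46 for GDF15 and −0.18 and 0.20 for KLF6. KLF4 had r = 0.61 and rho = 0.57 (exact permutation p = 0.0316 and 0.0490, adjusted 0.158 and 0.210), and 0.53 without the 2 farthest libraries. These relations pointed the same way in both lines, at 0.73 in CAMA-1 and 0.55 in ZR-75-1 for KLF4, but did not hold after adjustment.

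ATF3 had r = 0.42 and rho = 0.37 (exact permutation p = 0.239 and 0.221, adjusted 0.454 and 0.435). ATF4 had r = 0.48 and rho = 0.38 (exact permutation p = 0.204 and 0.229, adjusted 0.454 and 0.435). For ATF4, r was 0.79 in CAMA-1, 0.04 in ZR-75-1 and 0.19 without the 2 farthest libraries, so the pooled value rested on those libraries. TFEB, too low to fit in ZR-75-1, had the lowest r, −0.39, with rho = −0.27 (exact permutation p = 0.201 and 0.374, adjusted 0.454 and 0.592), and r = −0.11 without the 2 farthest libraries.

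XBP1 and RELA, the other regulators with a raw p under 0.05, had r = 0.56 and 0.55 and rho = 0.57 and 0.61 (exact permutation p = 0.0280 and 0.0224 for r, 0.0397 and 0.0283 for rho, adjusted 0.158 for r and 0.210 for rho). Without the 2 farthest libraries r was 0.62 for XBP1 and 0.42 for RELA. In CAMA-1 and ZR-75-1 alone, XBP1 had 0.68 and 0.37 and RELA 0.45 and 0.70. None of the 19 relations passed adjustment within either line.

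**Figure D4:**
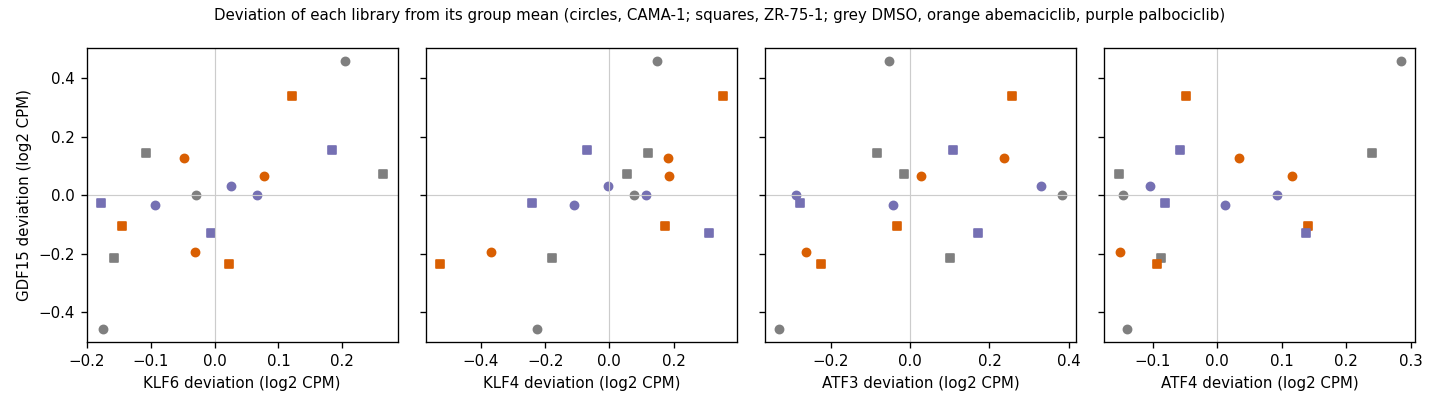
Deviation of GDF15 from its group mean against that of KLF6, KLF4, ATF3 and ATF4, in log2 CPM, for each of the 18 libraries. The outermost GDF15 points are CAMA-1 DMSO libraries, and r is 0.63, 0.61, 0.42 and 0.48 from left to right.

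Across the treatments, likeness to GDF15 was measured as Pearson's r over the 18 libraries of log2 CPM centred on the mean of each line, for 9717 genes. This is a description, since the libraries share their treatments and GDF15 was picked for this pattern. The median r was 0.01 and 10 genes reached 0.90. They were KRT81 (0.96), ANXA2 (0.95), SYTL4 (0.93), TPM4 (0.92), ATF3 (0.91), RRAS (0.91), CLIP1 (0.91), KLF6 (0.91), SCRN1 (0.90) and TSC22D3 (0.90), so that ATF3 ranked 5 and KLF6 ranked 8. KLF4 ranked 18 with r = 0.89, EGR1 1409 with 0.43, and ATF4 2990 with 0.21. By Spearman's rho 7 of the 10 stayed among the 10 highest.

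KRT81, a hair-type keratin, had 2.24, 3.68 and 2.30 CPM with DMSO in CAMA-1, 44.7, 32.6 and 29.4 with abemaciclib, and 57.8, 45.0 and 47.6 with palbociclib. Its ZR-75-1 libraries had 31.1, 33.8 and 26.3 CPM, then 3.65, 4.52 and 4.34, and then 5.89, 9.83 and 7.66. Its inhibitor libraries did not overlap with DMSO in either line, with fitted values of 3.70, 4.18, −2.87 and −1.98. Closely related keratin genes could share its reads.

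ANXA2, a calcium-dependent membrane-binding annexin, rose by 0.97 and 1.08 in CAMA-1 and fell by 0.73 with abemaciclib in ZR-75-1, while its palbociclib value there, −0.19, did not pass. TPM4, an actin-binding tropomyosin, passed in all 4 comparisons, at 0.43, 0.57, −0.89 and −0.43. The genes most opposed were ATP1B1 (−0.95), RPLP0 (−0.92), SEPHS2 (−0.91), EPB41L2 (−0.91) and STC1 (−0.91), of which RPLP0, a ribosomal protein gene with pseudogene copies, has uncertain counts. STC1, a secreted glycoprotein hormone, fell in CAMA-1 from 54.2 ± 2.58 to 18.4 ± 4.33 and 6.23 ± 1.97 CPM and rose from 31.5 ± 5.41 to 55.9 ± 1.31 and 43.3 ± 2.59 in ZR-75-1 (SD, n = 3). Its rise with palbociclib in ZR-75-1 was lost without DMSO replicate 1 or 3.

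**Figure D5:**
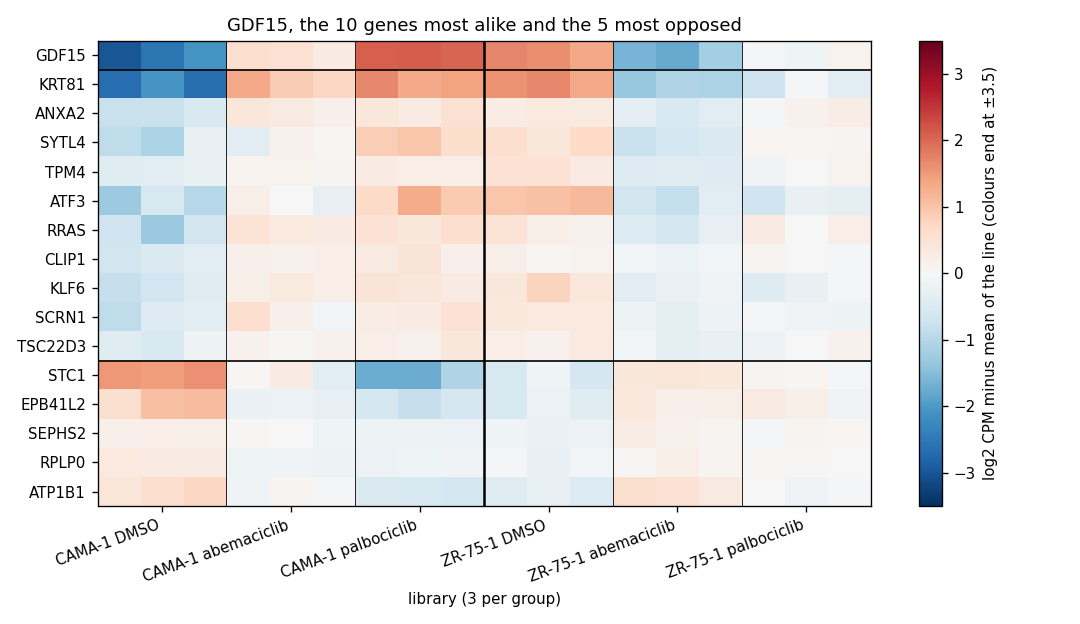
GDF15, the 10 genes with the highest r to it and the 5 with the lowest, as log2 CPM minus the mean of the line, in each of the 18 libraries. The upper rows are low in CAMA-1 with DMSO and high in ZR-75-1 with DMSO, and the lowest 5 rows have the reverse colours.

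The pattern that chose GDF15, higher in CAMA-1 and lower in ZR-75-1 with both inhibitors, was called for 77 of the 10123 other genes fitted in both lines (0.761%), GDF15 itself being left out of this count. The reverse pattern was called for 50 (0.494%). Among the listed genes, ATF3, KLF4, KLF6, CDKN1A, BBC3, INHBB, AREG and KRT18 belonged to the 77, as did KRT81, TPM4, SCRN1 and TSC22D3 of the genes most alike.

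Genes known to respond to DNA damage were examined because GDF15 is one of them. Of 24 fitted in CAMA-1, 10 rose (41.7%, against 20.3% of all genes) and 3 fell (12.5%, against 20.1%) with abemaciclib, and 9 rose (37.5%, against 18.4%) and 3 fell (12.5%, against 18.7%) with palbociclib. Of 27 fitted in ZR-75-1, 3 rose (11.1%, against 17.9%) and 12 fell (44.4%, against 18.3%) with abemaciclib, and 3 rose (11.1%, against 14.5%) and 8 fell (29.6%, against 13.4%) with palbociclib. CAMA-1 had list medians of 0.23 and 0.21, and ZR-75-1 of −0.60 and −0.27. CDKN1A, which encodes the CDK inhibitor p21, had 8.62, 8.04 and 12.6 CPM with DMSO in CAMA-1, 43.4, 33.9 and 43.7 with abemaciclib, and 28.4, 37.0 and 30.6 with palbociclib. Its ZR-75-1 libraries had 147.0, 156.2 and 132.7 CPM, then 22.9, 28.1 and 27.6, and then 78.0, 65.4 and 68.9. Every inhibitor library lay above DMSO in CAMA-1 and below it in ZR-75-1, as with GDF15.

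CDKN1A rose by 1.99 and 1.64 on the log2 scale in CAMA-1 and fell by 2.48 and 1.04 in ZR-75-1. BBC3 (PUMA, a pro-apoptotic protein, named after its values were seen) rose by 0.53 and 0.62 and fell by 1.36 and 0.60. No other gene of the list was called in these directions. GADD45A, a growth arrest gene too low to fit in CAMA-1, was not among the genes chosen by the naming rule given below. It also had every inhibitor library above DMSO there and below it in ZR-75-1, with means of 1.70, 2.59 and 3.12 CPM and of 4.87, 3.23 and 1.68 CPM. Its CAMA-1 counts were only 6, 4 and 8 in DMSO libraries, against 13, 5 and 7 under abemaciclib. How many of all genes separate from DMSO in this way, called or not, was not counted. The match of GADD45A therefore has no background to be set against. TP53INP1, RRM2B and TIGAR, which the rule did choose, went the other way from GDF15 in ZR-75-1. Every inhibitor library of these genes lay above DMSO in that line. The TIGAR calls there were lost under 8 of 12 alternatives with abemaciclib and 7 of 12 with palbociclib, DESeq2 among them in both. BTG2, an antiproliferative gene, rose by 2.25 and 2.15 in CAMA-1 and by 0.65 with palbociclib in ZR-75-1, and DDB2, a DNA damage recognition gene, fell in both lines, by 1.37 and 1.89 and by 2.17 and 1.27. BAX, a pro-apoptotic gene, fell by 2.61 with abemaciclib in ZR-75-1 from a mean of 6.66 CPM. The count of 3 that fell with abemaciclib in CAMA-1 was 1 without DMSO replicate 3 or abemaciclib replicate 2. The count of 3 that rose with abemaciclib in ZR-75-1 was 1 without abemaciclib replicate 1, and the 8 that fell with palbociclib were 4 without DMSO replicate 1 or palbociclib replicate 2 and 5 without palbociclib replicate 3.

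More targets of ATF4 fell than rose in both lines. Of 38 fitted in CAMA-1, 15 fell with each inhibitor (39.5%, against 20.1% of all genes with abemaciclib and 18.7% with palbociclib), while 3 rose with abemaciclib (7.89%, against 20.3%) and 2 with palbociclib (5.26%, against 18.4%). Of 40 fitted in ZR-75-1, 30 fell with abemaciclib (against 18.3% of all genes) and 28 with palbociclib (against 13.4%), while 2 and 3 rose (against 17.9% and 14.5%). For CAMA-1 the list medians were −0.18 and −0.23, for ZR-75-1 −0.88 and −0.66. The cystine transporter SLC7A11 fell in ZR-75-1, from 38.5 to 1.75 and 4.00 CPM with log2 fold changes of −4.41 and −3.25. The glutathione-degrading enzyme CHAC1 fell there too, at −3.21 and −3.25.

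In CAMA-1 the serine synthesis enzyme PHGDH fell by 2.54 and 1.86 and the glutamine transporter SLC1A5 by 1.31 and 0.81, while CHAC1 (−0.06 and 0.21) passed no test. STC2, a secreted glycoprotein, rose by 0.75 and 0.95 in CAMA-1 and fell by 0.64 with palbociclib in ZR-75-1. The latter call was lost without DMSO replicate 3. Without that library, 1 ATF4 target in place of 2 rose with abemaciclib in ZR-75-1. JDP2, a bZIP protein that binds AP-1 sites, had every inhibitor library above DMSO in CAMA-1 and below it in ZR-75-1, as GDF15 did. The share of all genes with this separation was not counted. Its means were 46.7, 65.5 and 57.1 CPM in CAMA-1 and 19.1, 2.29 and 3.35 CPM in ZR-75-1, where it fell by 3.06 and 2.47. In CAMA-1 it rose by 0.48 with abemaciclib, and its palbociclib value of 0.27 did not pass.

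The eIF2α kinases and their feedback were represented by 9 genes. In CAMA-1, 3 rose and 1 fell with abemaciclib and 2 rose and 1 fell with palbociclib, and in ZR-75-1, 2 rose with abemaciclib and 1 with palbociclib. The CAMA-1 shares that rose were 33.3% and 22.2%, against 20.3% and 18.4% of all genes. Those for ZR-75-1 were 22.2% and 11.1%, against 17.9% and 14.5%, so most of the shares that rose lay near the background. The CAMA-1 share that fell was 11.1% with each inhibitor, against 20.1% and 18.7% of all genes. In ZR-75-1 none fell, against 18.3% and 13.4%. PPP1R15A (GADD34), the phosphatase subunit that ends the stress response, rose by 1.05 and 1.04 in CAMA-1 and was −0.03 and −0.55, not passing, in ZR-75-1. DELE1, which relays mitochondrial stress, rose by 0.95 and 0.52 in ZR-75-1, and its palbociclib call was lost by DESeq2. The list had no call with palbociclib in ZR-75-1 by DESeq2, without DMSO replicate 1 or without palbociclib replicate 2, and 2 without palbociclib replicate 3.

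Of 16 endoplasmic reticulum chaperone genes, 11 rose in ZR-75-1 with abemaciclib (68.8%, against 17.9% of all genes) and 10 with palbociclib (62.5%, against 14.5%), in the line in which GDF15 stood lower. In CAMA-1, 6 rose and 2 fell with abemaciclib (against 20.3% and 20.1%) and 5 rose and 2 fell with palbociclib (against 18.4% and 18.7%). The medians were 0.46 and 0.47 in ZR-75-1 and 0.14 and 0.03 in CAMA-1. The difference between the lines was called for 9 genes with abemaciclib (against 18.2% of all genes), all higher in ZR-75-1, and for 10 with palbociclib (against 20.3%), 8 of them higher. HSPA5 (BiP), the main chaperone of the compartment, rose by 0.64 and 0.75 in ZR-75-1 and had 0.15 and 0.14, not passing, in CAMA-1.

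Targets of NRF2, the oxidative stress factor, numbered 11 in CAMA-1, of which 2 rose and 6 fell with abemaciclib, and 3 rose and 5 fell with palbociclib. The share that rose with abemaciclib, 18.2%, was near the 20.3% of all genes, and the share that fell was 54.5%, against 20.1%. With palbociclib the shares were 27.3% and 45.5%, against 18.4% and 18.7%. Of 12 in ZR-75-1, 3 rose and 1 fell with abemaciclib (against 17.9% and 18.3% of all genes), and 5 rose with palbociclib (against 14.5%). FTL, the light chain of the iron store ferritin, rose in both lines, by 0.49 and 0.69 and by 0.81 and 0.97. NQO1, a quinone reductase, fell by 1.38 and 0.71 in CAMA-1. Of 14 lysosomal targets of TFEB and TFE3 in CAMA-1, 6 rose and 1 fell with abemaciclib (against 20.3% and 20.1% of all genes), and 3 rose and 1 fell with palbociclib (against 18.4% and 18.7%). Of 13 in ZR-75-1, 7 rose and 1 fell with abemaciclib (against 17.9% and 18.3%), and 5 rose and 2 fell with palbociclib (against 14.5% and 13.4%). The protease CTSD rose in both lines, by 1.23 and 1.36 and by 1.05 and 1.67.

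Among the relatives of GDF15 in the TGF-β family and its signalling, 10 of 24 rose and 2 fell with abemaciclib in CAMA-1 (against 20.3% and 20.1% of all genes) and 8 rose and 2 fell with palbociclib (against 18.4% and 18.7%). In ZR-75-1, 4 of 22 rose and 4 fell with abemaciclib, 18.2% each and so about the 17.9% and 18.3% of all genes, and 1 rose and 4 fell with palbociclib (against 14.5% and 13.4%). INHBB, an activin and inhibin subunit, rose in CAMA-1 from 185.7 ± 2.93 to 328.1 ± 17.3 and 337.4 ± 13.6 CPM and fell from 48.7 ± 3.71 to 26.6 ± 2.93 and 27.3 ± 2.63 in ZR-75-1 (SD, n = 3). It was the member of this list that was called higher in CAMA-1 and lower in ZR-75-1 with both inhibitors. BMP7, a bone morphogenetic protein, rose by 3.55 and 2.51 in CAMA-1 from a mean of 1.04 CPM. ID2, a target of the pathway, fell in both lines, by 0.86 and 1.13 and by 1.72 and 1.70.

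Of 25 senescence-linked secreted factors, only 6 in CAMA-1 and 7 in ZR-75-1 had enough counts to be fitted. In CAMA-1, 4 rose and 1 fell with abemaciclib and 5 rose and 1 fell with palbociclib, and in ZR-75-1, 6 rose and 1 fell with each. Of all genes, 14.5% to 20.3% rose and 13.4% to 20.1% fell over these comparisons. AREG, an EGF receptor ligand, rose by 1.64 and 1.42 in CAMA-1 and was the member that fell in ZR-75-1, by 0.59 and 0.94. TIMP1, a metalloproteinase inhibitor, rose by 2.85 and 2.07 in ZR-75-1 only, being too low to fit in CAMA-1.

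The receptor GFRAL had 0 counts in all 18 libraries, below the floor of 3 counts. Its co-receptor RET, an oestrogen-responsive kinase in luminal cells, had 7.20, 7.98 and 7.60 CPM with DMSO in ZR-75-1, 34.5, 33.4 and 38.3 with abemaciclib, and 34.8, 29.8 and 26.2 with palbociclib. RET rose there by 2.20 and 1.99 on the log2 scale, with no overlap, as GDF15 stood lower. In CAMA-1 its means were 12.3, 8.58 and 9.72 CPM and its values of −0.49 and −0.34 did not pass. The difference between the lines was 2.66 (SE 0.35) with abemaciclib and 2.29 (SE 0.34) with palbociclib, with adjusted p of 1.53e-08 and 3.65e-07 by edgeR.

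Among the processing enzymes, FURIN, the prototype convertase, rose by 0.49 with abemaciclib in CAMA-1 and by 0.75 with palbociclib in ZR-75-1. The former was lost by DESeq2 (adjusted p = 0.0603) and without DMSO replicate 1 or 2 or abemaciclib replicate 1 or 3. PCSK7 rose by 0.70 and 1.07 in ZR-75-1. Its abemaciclib libraries overlapped with DMSO there, and that call was lost without DMSO replicate 2 or abemaciclib replicate 3. PCSK6 had −1.40 and −1.14 there, of which the palbociclib value was lost under 9 of 12 alternatives. Leaving out any 1 of its 6 libraries was enough.

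RNA-binding proteins that control transcript stability were also listed. ZFP36, a decay factor of AU-rich transcripts, rose by 2.08 and 1.51 in CAMA-1 and by 2.45 with abemaciclib in ZR-75-1, where palbociclib gave 0.02 and did not pass. In ZR-75-1 it was 2.44 higher with abemaciclib than with palbociclib (SE 0.29, adjusted p = 1.97e-09 by edgeR), the contrast in which GDF15 was lower. In CAMA-1 that difference was 0.57 (SE 0.24, adjusted p = 0.293 by edgeR). ZFP36L1, its relative, rose by 1.49 and 1.33 in CAMA-1 and by 0.54 with abemaciclib in ZR-75-1, and ELAVL1 (HuR), a stabilising factor, fell by 0.42 with palbociclib in CAMA-1.

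In all, 4 genes with start sites within 100 kb of GDF15 were fitted, and none was called in opposite directions in the lines. PGPEP1, a peptidase gene on the upstream side, rose in both lines, by 0.62 and 0.58 in CAMA-1 and by 0.84 and 0.83 in ZR-75-1. LSM4, an RNA-processing gene, fell by 0.77 and 0.61 in CAMA-1 and had −0.21 and −0.03, not passing, in ZR-75-1. SSBP4 fell by 0.54 with abemaciclib in CAMA-1, and ISYNA1, inositol-3-phosphate synthase, rose by 1.06 with palbociclib in ZR-75-1.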

How the data were processed

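Counts per gene from QuantSeq 3′ RNA-seq were used as the authors deposited them. The authors trimmed reads with BBDuk, aligned them to hg38 with STAR 2.7.5b and counted them with featureCounts 2.0.1 on GENCODE release 35. The handling of strand, multiply aligned reads and molecular identifiers is not given in the sources used here. The labels name the reverse and the methods the forward version of the kit. The read of a 3′ kit leaves levels free of transcript length, but differences in poly(A) site use are not resolved.

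The table has 60656 gene rows, of which 60401 matched a symbol. Each line's 9 libraries were fitted alone with edgeR 4.0.16 (R 4.3.3; filterByExpr, TMM factors, quasi-likelihood F test), and differences between the lines came from a fit over all 18 libraries. P-values were adjusted by Benjamini-Hochberg over all genes fitted, with calls at 0.05, and each SE is the fold change divided by the root of F. CPM are scaled by the TMM factors of the 18-library fit. Log2 CPM for the relations used a prior count of 2. Likeness was ranked where the mean count of a gene reached 10 in both lines. The fit and the permutation were tested on simulated data. DESeq2 1.42.0, RLE and upper-quartile factors, no filter on low counts, a replicate block, leaving out mitochondrially encoded genes and leaving out each library were the alternatives.

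GDF15 and all lists were chosen with earlier results of these data known. Of the listed genes, 2 are not reported here and enter no list count. Named were regulators and receptor or processing genes called at least once, with ATF4, DDIT3, EGR1, GFRAL and RET in any case. From each other list up to 3 called rises and 3 called falls per line could be named, with the 10 genes most alike, the 5 most opposed and fitted neighbours within 100 kb. The methods describe the 3 libraries of a group as independent cultures, grown within a single experiment. The p-values thus rest on the spread between cultures and not between repeat experiments. In the edgeR and DESeq2 fits the estimate of spread is shared in part across genes. The p-value and SE of a gene such as EGR1 therefore need not reflect its own spread between cultures.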

Additional observations from a re-analysis of the deposited data

Results flagged for a closer look

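The response to an inhibitor differed between ZR-75-1 and CAMA-1 for GDF15 and, among the candidate regulators, CDKN1A and RET, for 13 genes, which flagged them. Genes of the other lists were not screened one by one here, and some of those named above also differed, such as LSM4, by 0.54 and 0.55. For GDF15 the difference of the log2 fold changes, ZR-75-1 less CAMA-1, was −6.19 with abemaciclib and −6.26 with palbociclib. Every inhibitor library lay above DMSO in CAMA-1 and below it in ZR-75-1, and this difference was not tested because GDF15 was chosen for it.

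The other differences passed edgeR's test of the difference between the lines. With abemaciclib, ZR-75-1 minus CAMA-1 was −4.49 for CDKN1A, −3.15 for NUPR1, −2.81 for ATF3, −2.20 for KLF4, −1.66 for KLF6, −0.98 for ATF4, −0.68 for JUN, −0.47 for RELA and −0.31 for XBP1. RET had 2.66. RELA lost its call under 9 of 18 alternatives, JUN under 5 and XBP1 under 4.

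With palbociclib the differences were −3.69 for ATF3, −3.26 for EGR1, −3.14 for NUPR1, −2.70 for CDKN1A, −2.38 for JUN, −2.25 for KLF4, −1.79 for KLF6, −0.89 for ATF4, −0.88 for NFKB1 and −0.59 for XBP1. HIF1A had 0.74 and RET 2.29. NFKB1 lost its call without ZR-75-1 DMSO replicate 2. The mitochondrially encoded share of counts was higher with both inhibitors than with DMSO in CAMA-1 and not in ZR-75-1, and with those genes left out none of these calls was lost.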

How the results depend on the processing

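GDF15 kept its direction in all 4 comparisons with DMSO and in both comparisons of the inhibitors under every alternative run. Leaving out 1 library gave log2 ranges of 2.80 to 3.34 and 4.41 to 4.95 in CAMA-1 and −3.34 to −3.04 and −1.72 to −1.55 in ZR-75-1, and the inhibitor contrast ran from −1.68 to −1.52 and from −1.72 to −1.42 (largest adjusted p 6.67e-08 by edgeR or DESeq2). The difference between the lines in that contrast, 0.07, turned to −0.0055 without CAMA-1 abemaciclib replicate 3 and −0.113 without ZR-75-1 abemaciclib replicate 3, within a leave-one-out range of −0.113 to 0.185.

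Counts of calls that changed by more than 1.5 times were few. DESeq2 gave 1 in place of 3 candidate regulators higher with abemaciclib in ZR-75-1 and 0 in place of 1 for the eIF2α list with palbociclib. Leaving out a library gave a range of 1 to 3 DNA damage response genes lower with abemaciclib in CAMA-1, and in ZR-75-1 of 1 to 2 DNA damage response genes higher and 1 to 2 ATF4 targets higher with abemaciclib. With palbociclib in ZR-75-1 it gave 1 to 2 regulators higher, 4 to 9 DNA damage response genes lower and 0 to 2 calls in the eIF2α list. Regulators that differed between the lines with abemaciclib ranged from 5 to 9. The cause was not tested.

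No pairing by replicate number was seen over all fitted genes, where 18 same-number pairs had correlations of deviations from −0.057 to 0.025 and 0 exceeded 0.1. A batch that touches only some genes was not tested. With a replicate block GDF15 had 3.00, 4.61, −3.16 and −1.62, the inhibitor contrast −1.61 and −1.54, and 10 in place of 11 regulators lower with palbociclib in ZR-75-1. Depth limits GDF15 most in CAMA-1 with DMSO (14 to 39 counts), and low regulators such as ATF3, KLF4 and DDIT3. Intervals do not cover molecules counted more than once in amplification.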
